A study of Mus musculus with 12 samples.

Results

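GV-stage mouse oocytes express several gene families that lie largely in clusters of the genome. Many of their members, though not all, are known mainly from the oocyte. The rows of the deposited table whose symbol matched Oog, Obox, Oosp, Cphx followed by a number, Tcl1, Nlrp4a to Nlrp4g, Nlrp9a to Nlrp9c, Nlrp14 or Oas1a to Oas1h were taken, which gave 38 of 24255 genes in 8 families. No member was at 0 in all libraries, and 37 members reached 1 FPKM, the number of fragments mapped to a transcript, scaled by its length and by the depth of the library, in at least 1 of the 12 libraries. Obox6, at 0.942 FPKM at most, was not tested. Obox4, Obox7, Obox8, Nlrp4d and Cphx3 were not analysed here.

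Each library was made by Smart-seq2, a method that amplifies cDNA from very few cells, from 20 oocytes of C57BL/6 females aged 3 weeks that had received 5 IU of PMSG, a gonadotropin that stimulates follicle growth, 46 h earlier. There were 3 libraries each of wild type (WT) oocytes, of D166G-Dpagt1 mutant (MUT) oocytes, of Dpagt1F/F Gdf9CRE/+ (GcKO) oocytes and of Dpagt1F/F Amhr2CRE/+ (AmcKO) oocytes. Dpagt1 encodes the enzyme that begins N-glycan synthesis in the endoplasmic reticulum. The MUT females carry an ENU-induced recessive missense mutation in every cell, the Gdf9-driven Cre deletes the floxed gene in the oocyte, and the Amhr2-driven Cre deletes it in granulosa cells, so that the AmcKO oocyte itself keeps the gene. The labels name no floxed or Cre allele in the WT females. Nothing in the sources used here says that libraries of a group came from separate animals, so p-values measure the spread between libraries. Library numbers run from 1 to 3 in MUT and GcKO and from 4 to 6 in WT and AmcKO, and if they stand for a batch it cannot be told apart from the contrast of the first pair of groups with the second.

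The families differ in what they encode. Obox and Cphx genes encode homeobox transcription factors, and OBOX proteins are known to act in the activation of the embryonic genome after fertilization. Tcl1 and its Tcl1b neighbours encode small proteins, of which TCL1 is known as a coactivator of the kinase AKT. Oogenesins (Oog) are leucine-rich repeat proteins of the PRAME family, and Oosp genes encode small secreted proteins of the oocyte. NLRP proteins belong to the NOD-like receptors, several of which are made from maternal mRNA for the early embryo. Active OAS1 enzymes make oligoadenylates that activate RNase L in the antiviral response. The mouse has many copies, of which Oas1c, Oas1d and Oas1e are known from the ovary. Which copies encode an active enzyme was not examined here.

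In GRCm38 (mm10), with positions from GENCODE M21, the 6 Tcl1 genes lie within 76.8 kb of chromosome 12 (105146014 to 105222793) and the 3 Oosp genes within 64.6 kb of chromosome 19 (11647279 to 11711874). The 8 Oas1 genes fill 135 kb of chromosome 5 (120786226 to 120921652), and the 5 Obox genes 451 kb of chromosome 7 (15388721 to 15839678), where the annotated span of Obox1 runs over Obox2. The Oog genes lie on chromosome 4 except Oog1, which is on chromosome 12, and Cphx1 and Cphx2 lie on chromosome 14. The Nlrp4 and Nlrp9 genes and Nlrp14 are spread over chromosome 7, with Nlrp4f on chromosome 13 and Nlrp4g, annotated as a transcribed pseudogene, on chromosome 9. Oas1b is annotated as a polymorphic pseudogene.

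Copies of a family can share reads. Of the 100-base stretches of the Obox1 transcripts, 42.3% also occur in Obox2, and 47.2% of those of Obox2 occur in Obox1, whereas Obox5 shares 1.75% with other genes. For Cphx1 and Cphx2 the share found in other genes was 78.6% and 88.4%, for Oas1a and Oas1g 40.9% and 31.3%, and for Oog1 78.03%. The division of reads among these copies is therefore uncertain. Tcl1, Tcl1b4, Oog4, Oosp1, Oosp2, Oosp3, Nlrp14, Nlrp4a, Nlrp4b, Nlrp4g, Oas1b, Oas1c, Oas1d, Oas1e, Oas1f, Oas1h and Obox6 shared no such stretch with another gene.

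The promoters of the most abundant family are shown because its 3 abundant genes changed together. RefSeq windows of 300 bases, from 250 bases before to 50 bases after the start site (GRCm38.p6), were matched by symbol for 31 of the 38 members. Obox1 (chr7:15547007-15547306), Obox2 (chr7:15388601-15388900) and Obox5 (chr7:15750120-15750419), each on the plus strand, read as follows, with the run AGTGGGTGGAG in capitals.
Obox1: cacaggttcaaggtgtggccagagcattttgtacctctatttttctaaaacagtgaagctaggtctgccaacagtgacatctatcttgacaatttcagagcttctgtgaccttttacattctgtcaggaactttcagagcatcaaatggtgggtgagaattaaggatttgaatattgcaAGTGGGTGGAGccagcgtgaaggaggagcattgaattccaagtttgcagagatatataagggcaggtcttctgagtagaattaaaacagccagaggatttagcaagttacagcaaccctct
Obox2: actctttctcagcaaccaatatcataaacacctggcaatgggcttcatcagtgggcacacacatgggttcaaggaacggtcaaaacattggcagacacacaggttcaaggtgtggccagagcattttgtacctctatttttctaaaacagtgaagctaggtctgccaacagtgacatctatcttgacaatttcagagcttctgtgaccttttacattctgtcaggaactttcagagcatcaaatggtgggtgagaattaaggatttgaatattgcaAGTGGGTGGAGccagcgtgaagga
Obox5: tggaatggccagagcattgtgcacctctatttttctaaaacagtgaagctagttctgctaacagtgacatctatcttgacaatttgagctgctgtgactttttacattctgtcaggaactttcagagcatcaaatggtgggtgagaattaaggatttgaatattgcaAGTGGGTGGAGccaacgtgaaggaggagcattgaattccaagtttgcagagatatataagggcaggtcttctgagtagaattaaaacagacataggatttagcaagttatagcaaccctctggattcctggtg
Obox1 and Obox2 share an unbroken run of 203 bases, which begins at -250 from the start site in Obox1 and at -153 in Obox2, so the annotated start sites are not at the same place of the repeat. Obox1 and Obox5 were identical at 88.8% of aligned positions.

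The promoters of Oog3 (chr4:144162602-144162901) and Oog4 (chr4:143450275-143450574), both on the minus strand, are shown because their transcripts changed to a different degree in MUT oocytes. Capitals mark AGTGGGTGGAG, the NOBOX element TAATTG, here read on the other strand, and TATAAA.
Oog3: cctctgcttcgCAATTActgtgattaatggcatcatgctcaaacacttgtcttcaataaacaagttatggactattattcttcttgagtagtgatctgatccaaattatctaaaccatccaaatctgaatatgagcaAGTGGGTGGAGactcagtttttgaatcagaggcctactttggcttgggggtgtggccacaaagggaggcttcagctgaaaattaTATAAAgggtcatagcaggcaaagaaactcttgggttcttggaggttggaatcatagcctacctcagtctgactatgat
Oog4: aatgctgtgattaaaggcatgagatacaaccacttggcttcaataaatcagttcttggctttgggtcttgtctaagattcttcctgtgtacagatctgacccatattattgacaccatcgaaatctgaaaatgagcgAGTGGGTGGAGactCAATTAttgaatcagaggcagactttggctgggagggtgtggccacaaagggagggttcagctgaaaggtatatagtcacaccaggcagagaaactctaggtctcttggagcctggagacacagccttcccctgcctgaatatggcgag
This run of 11 bases is the longest that the 5 promoters have in common. It begins at -113 from the start site in Oog3 and Oog4, at -71 in Obox1, at -83 in Obox5 and at 27, past the start site, in Obox2. Of all 32851 promoters of the table, 61 (0.186%) hold it on either strand, against 5 of 31 members. The run was derived from these 5 promoters after they had been read, so the count is a description.

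Sequence elements of oocyte transcription factors were searched on both strands. TAATTG, the NOBOX element, occurred in the promoters of 4 of 31 members (Nlrp9a, Nlrp9b, Oog3 and Oog4) and in 7.9998% of all promoters. TGATTG, the LHX8 element, occurred in 5 members and in 14.04% of all promoters, and TATAAA in 6 members and 13.6%. The E-box CANNTG occurred in 27 members and in 72.3% of all promoters, and its form CACGTG, which CANNTG includes, in 0 members and 7.15%. None of the elements occurred in the promoters of Obox1, Obox2 and Obox5 except the E-box.

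The members were among the most abundant transcripts of the oocyte. Obox2 had the highest mean of all 24255 genes (30811.5 FPKM), and Obox1, Obox5 and Tcl1 were also among the 10 most abundant genes. In all, 15 members were among the 100 most abundant genes, 28 members had a mean over 100 FPKM and 6 a mean under 10 FPKM. The 38 members took 15.4 ± 0.488% (SD, n = 3) of the summed FPKM in WT oocytes, 11.5 ± 0.398% in MUT, 10.9 ± 0.985% in GcKO and 14.1 ± 0.557% in AmcKO oocytes. The WT libraries ranged from 14.8 to 15.8%, above the 11.1 to 11.9% of MUT, the 9.74 to 11.5% of GcKO and the 13.5 to 14.5% of AmcKO. The differences from WT were -3.89, -4.48 and -1.22 percentage points, each with p = 0.1 by a two-sided exact permutation test, the smallest p that 3 against 3 libraries allow. These 3 comparisons share the WT libraries.

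**Figure D1:**
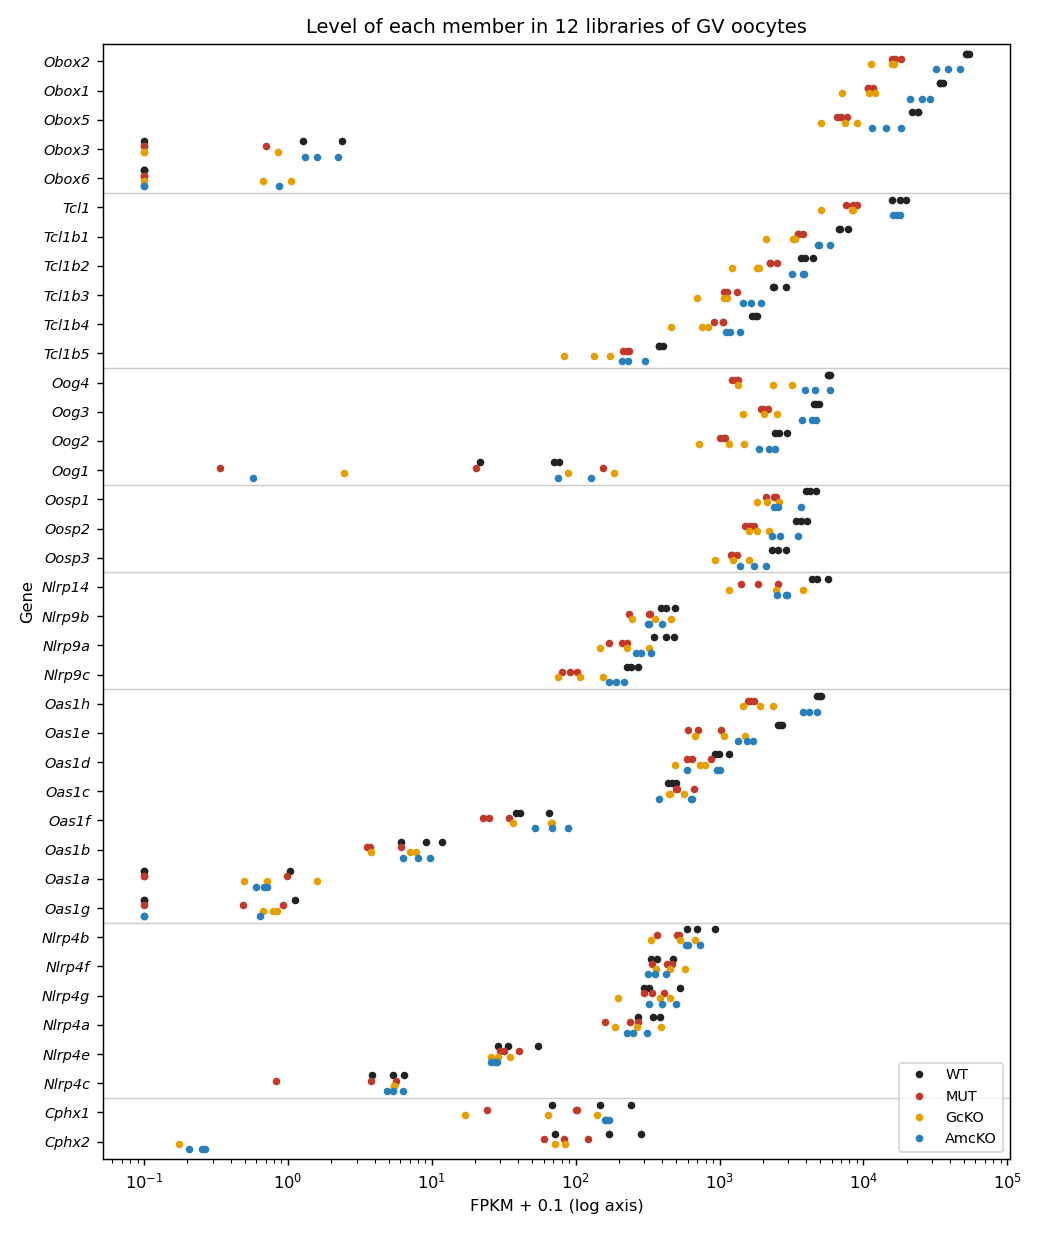
FPKM of each of the 38 members in every library (log axis, 0.1 added), by family and group, 1 point per library. Obox2, Obox1, Obox5 and Tcl1 are the most abundant members, with WT and AmcKO points to the right of MUT and GcKO points, while the 4 groups overlap for Nlrp4f and Nlrp4g.

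The WT libraries had FPKM sums between 1167362 and 1226005 and the AmcKO libraries between 883256 and 1107925. Sums of 589617 to 611597 were found for MUT and of 482314 to 684212 for GcKO, with GcKO 1 the lowest. Counts are not part of these values, and the fragments behind each are unknown. The lowest values of a library step with what 1 fragment is worth, which was 2.28 to 2.69 times that of MUT 2 in WT, between 1 and 1.21 times in MUT, between 0.889 and 1.51 times in GcKO and between 1.21 and 1.51 times in AmcKO libraries, and 9359 to 9622 genes were above 0 in WT and from 11208 to 11467 in MUT. The 882 genes with a mean over 100 FPKM had, against WT, median log2 fold changes of -0.81 (MUT) and -0.87 (GcKO), while the median of all 11233 genes tested was 0.12 in both. FPKM are relative values, so that less RNA in an oocyte and a change of single transcripts cannot be told apart. Dpagt1 itself was listed at 0 in the WT and AmcKO libraries, at 0.878, 0.408 and 0.985 FPKM in MUT and at 0, 0.366 and 0 FPKM in GcKO, and so does not check the labels. Of 10 oocyte markers (Oosp1, a member, among them), which were all above 1 FPKM in some library, 5 were called lower in MUT, 4 in GcKO and 0 in AmcKO. This was on the deposited scale, where 11.3, 11.4 and 0.116% of all genes tested were lower. Of 14 granulosa and cumulus cell markers 8 were tested, and Gja1, Hsd17b1 and Inha were called higher in MUT than in WT (9.46% of all genes tested). Amh, Amhr2, Foxl2, Slc38a3 and Lhcgr were at 0 throughout. The 14 summed to between 108 and 152 FPKM in WT, between 125 and 130.3 in MUT, between 101 and 146 in GcKO and between 125 and 149 in AmcKO oocytes. Serpine2 alone had group means of 104 to 120 FPKM. Gja1, Hsd17b1 and Inha were at 0 in WT and had means of 3.30, 1.93 and 4.00 FPKM in MUT, where 0 of the markers were called lower. The part of these markers in the results was not tested.

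MUT oocytes were compared with WT to ask what the missense mutation changes. On the deposited scale, 20 of 37 members tested were downregulated and 0 upregulated (limma on log2(FPKM + 1), adjusted p under 0.05), where 11.3% of all genes tested were lower and 9.46% higher. The 3 MUT values lay below the 3 WT values for 26 members (16.9% of all genes) and above them for 1, Oas1c (20.2% of all genes). The median log2 fold change (log2FC) of the members was -0.88, and that of the 28 members with a mean over 100 FPKM was -1.06, beside -0.81 for the genes of that abundance. In GcKO oocytes, which lack Dpagt1 in the oocyte only, 20 of 37 members were again downregulated and 0 upregulated, where 11.4% of all genes were lower and 8.71% higher. The GcKO values lay below WT for 21 members (16% of all genes) and above for 0 (18.2% of all genes). The medians were -1.07 over the members and -1.29 over the 28 abundant ones, beside -0.87 for all genes of that abundance. When each library was scaled to the same FPKM sum, the median of all genes moved to 0.69 in MUT and 0.72 in GcKO, and 8 members were lower (2.25% of all genes) and 4 higher (41.3%) in MUT, and 12 lower (2.15%) and 7 higher (42.4%) in GcKO. Quantile normalization gave 6 lower (6.34% of all genes) and 6 higher (6.87%) in MUT, and 4 lower (5.88%) and 3 higher (6.26%) in GcKO. Scaling by the median of ratios called the same members lower in both groups as on the deposited scale, and 0 higher.

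**Figure D2:**
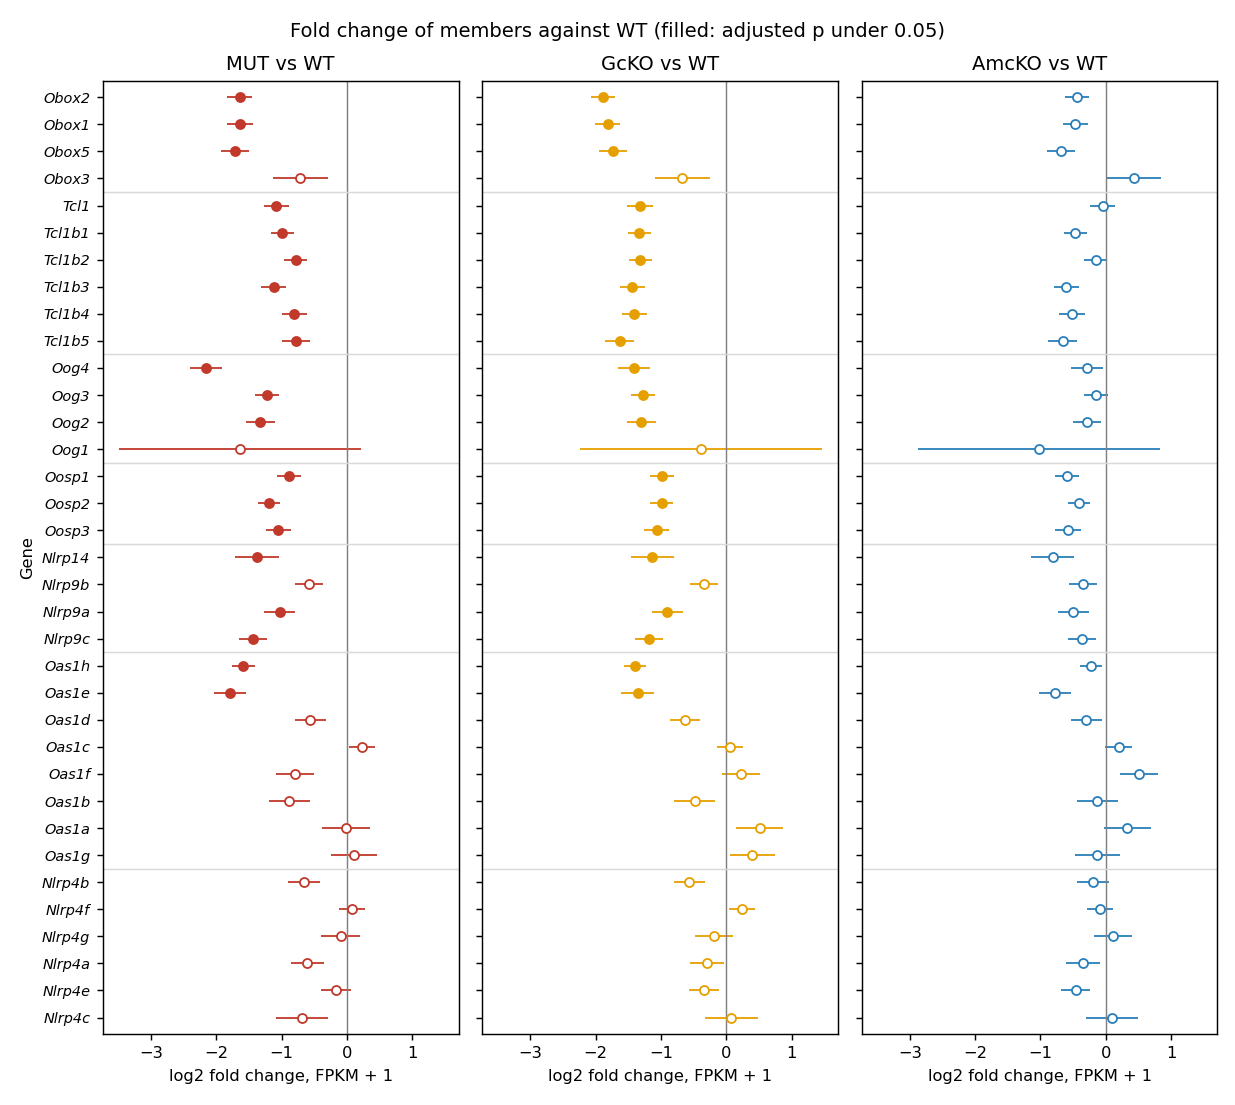
Log2FC (FPKM + 1) with its SE for 35 members in MUT, GcKO and AmcKO against WT, as deposited, with filled points for an adjusted p under 0.05. Cphx1 and Cphx2, which share reads, and the untested Obox6 are left out. The Obox, Tcl1, Oog and Oosp genes lie left of 0 in MUT and GcKO as deposited and the Nlrp4 genes between -0.69 and 0.24, but under at least 1 other scaling Obox1, Obox2, Oog3, Tcl1, Tcl1b1, Tcl1b2, Tcl1b4, Tcl1b5 and the Oosp genes lie right of 0 in MUT, and Oog1, Oog3, Tcl1, Tcl1b1 and the Oosp genes in GcKO.

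Among the transcription factor genes, Obox2 was at 53924, 52453 and 51697 FPKM in WT and at 18317, 16549 and 15856 FPKM in MUT libraries. It was at 11305, 15732 and 16275 FPKM in GcKO and at 38571, 46915 and 32146 FPKM in AmcKO. Each WT library was above each library of the other groups. Its log2FC was -1.64 (SE 0.19, limma, adjusted p = 0.000111) in MUT and -1.89 (SE 0.19, limma, adjusted p = 6.69e-05) in GcKO oocytes. Obox1 was at 35544, 33956 and 34059 FPKM in WT, 11706, 10786 and 10780.1 in MUT, 7117, 10864 and 12097 in GcKO, and 25492, 29141 and 21066 in AmcKO, in the same order of groups as Obox2. Its log2FCs were -1.64 in MUT and -1.82 in GcKO. Obox5 was at 24055, 21842 and 23858 FPKM in WT, at 7699.65, 6937 and 6599 in MUT and at 5043, 7419 and 8962 in GcKO, with log2FCs of -1.72 and -1.74 and no overlap with WT. These 3 genes remained called in each fit without 1 library and with the same FPKM sum, where they stood at -0.64 to -0.72 in MUT and -0.70 to -0.85 in GcKO. With quantile normalization Obox2 and Obox5 were called in MUT (-0.28 and -0.46) and Obox2 in GcKO (-0.28), and Obox1 in neither. That scaling sets a value by the rank of a gene in its library. Obox2, Obox1 and Obox5 ranked 1, 3 and 7 by mean, so the change it can show for them is limited. Obox2 stood at 0 between GcKO and MUT under it. With a loess correction for abundance none of them was called in either group, and Obox1 and Obox2 turned to 0.02 and 0.11 in MUT. Obox1 stood to Obox2 at a ratio between 0.647 and 0.659 in WT, between 0.639 and 0.680 in MUT, between 0.630 and 0.743 in GcKO and between 0.621 and 0.661 in AmcKO libraries. Their ratio thus overlapped between groups while both were called lower in MUT and GcKO as deposited, but the division of their shared reads is uncertain. Obox3, at 0 to 2.27 FPKM, and Obox6 were at the floor of detection.

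Cphx1 and Cphx2 cannot be read singly. The deposited table gives them the same locus. In WT, Cphx1 was at 68.4, 147 and 242 FPKM and Cphx2 at 283, 169 and 71.3 FPKM, so that Cphx1 took 19.4 to 77.3% of the pair in libraries of the same genotype. Cphx2 was at 0.164, 0.151 and 0.106 FPKM in the AmcKO libraries and at 0.0739 FPKM in GcKO 3, with Cphx1 at 99.9% of the pair in these 4 libraries. Cphx2 was the only member called between AmcKO and WT (log2FC -7.06, SE 1.18, limma, adjusted p = 0.0282), a call that was lost on leaving out WT 4, WT 5, AmcKO 4 or AmcKO 6 (limma, adjusted p up to 0.114). The sum of the pair was 327 ± 21.5 FPKM (SD, n = 3) in WT, 164 ± 18.6 in MUT, 126 ± 32.3 in GcKO and 164 ± 5.76 in AmcKO oocytes. Fitted as 1 gene, which was chosen after seeing the data, the pair was lower than WT in MUT (log2FC -0.997, limma, adjusted p = 0.00184), GcKO (-1.41, limma, adjusted p = 0.000216) and AmcKO oocytes (-0.99, limma, adjusted p = 0.0434), on the deposited scale. As a share of the summed FPKM the pair took 0.0256 to 0.0287% in WT and 0.0248 to 0.0299% in MUT, which overlapped, and 0.0184 to 0.0241% in GcKO and 0.0153 to 0.0183% in AmcKO.

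**Figure D3:**
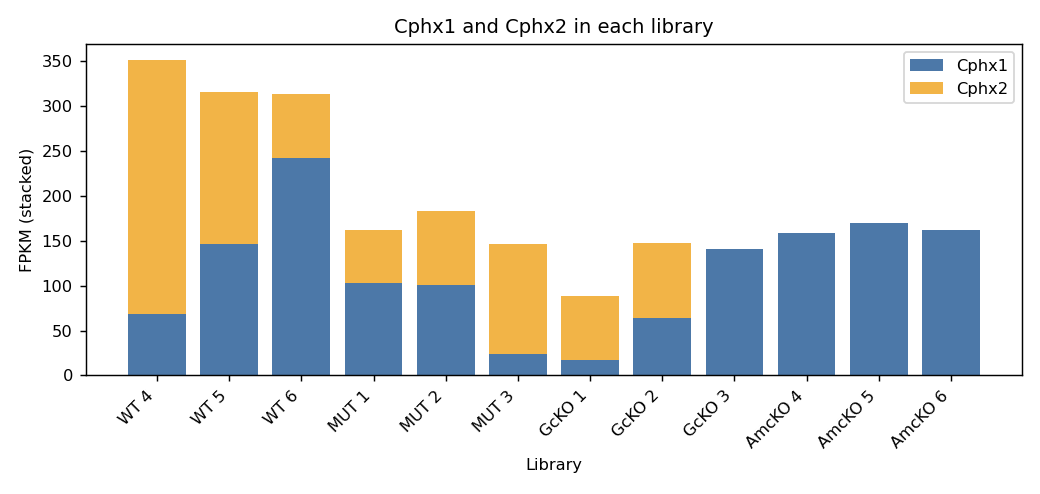
FPKM of Cphx1 and Cphx2 stacked in each of the 12 libraries. The division between the copies swings among libraries of a group, with nearly no Cphx2 in GcKO 3 and the 3 AmcKO libraries, while the summed height is between 314 and 352 FPKM in WT and 88.7 to 183 FPKM elsewhere.

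Tcl1 was at 19680.5, 17861 and 15733 FPKM in WT, at 8482, 9036 and 7611 FPKM in MUT and at 5061, 8432 and 8276 FPKM in GcKO. In AmcKO it was at 18033, 17239 and 16098 FPKM, inside the WT range. The log2FC of Tcl1 was -1.08 (SE 0.19, limma, adjusted p = 0.00164) in MUT and -1.32 (SE 0.19, limma, adjusted p = 0.000436) in GcKO. All 6 genes of the cluster were downregulated in both groups on the deposited scale, with medians of -0.90 in MUT and -1.37 in GcKO, but the MUT median turned to 0.10 with the same FPKM sum, 0.26 after quantile normalization and 0.30 after the loess correction, whereas the GcKO median was -0.33, -0.27 and -0.15, with Tcl1 itself at 0.19 and 0.29 under quantile normalization and loess. With the same FPKM sum, the 6 genes were called lower in GcKO and 0 were called in MUT, where Tcl1, Tcl1b1 and Tcl1b2 were called higher with quantile normalization and with loess. Tcl1b1 was at 7810.05, 6771 and 6887 FPKM in WT, at 3792, 3513 and 3498 in MUT, at 2112, 3325 and 3246 in GcKO and at 4896, 5832 and 4801 in AmcKO. Here the AmcKO values also lay below WT. Tcl1b5, the least abundant of the cluster, was at 404, 377 and 380.04 FPKM in WT, 227, 215 and 234 in MUT, 83.1, 172 and 133 in GcKO, and 231, 305 and 209 in AmcKO. Its log2FC in GcKO was -1.63 (SE 0.22, limma, adjusted p = 0.000269), and it was the only member called lower there under each of the 5 scalings (-0.60 to -1.64). In MUT its call was lost in 5 of the 6 fits without 1 library (all but that without WT 5; limma, adjusted p up to 0.0762).

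For Tcl1b1, Tcl1b2, Tcl1b4 and Tcl1b5 the GcKO values also lay below those of MUT. Tcl1b2 was at 4474, 3688 and 3898 FPKM in WT, 2523, 2225 and 2239.8 in MUT, 1224, 1883 and 1809 in GcKO and 3811, 3861 and 3163 in AmcKO, so each GcKO value was below each MUT value. In the comparison of GcKO with MUT, 0 of 37 members were called as deposited (0.205% of all genes were called, 0.134% lower and 0.0712% higher), 4 had GcKO values below those of MUT without overlap (6.87% of all genes) and 2 above (6.42%), and 5 had an unadjusted p under 0.05 (6.6% of all genes), namely Tcl1b2, Tcl1b4, Tcl1b5, Oog4 and Oas1f. The log2 differences of the 3 Tcl1b genes were -0.53, -0.61 and -0.86 (limma, adjusted p = 0.438, 0.417 and 0.205). With the same FPKM sum these 3 were called lower in GcKO than in MUT (0.32% of all genes) and Oog4 was called higher (0.347%), with quantile normalization Tcl1b1 was added to these, and with loess Tcl1b4 and Oog4 were called.

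Oog4 was at 5822, 5646 and 5805 FPKM in WT and at 1218, 1347 and 1303 FPKM in MUT. In GcKO it was at 1348, 2341 and 3179.8 FPKM, and in AmcKO at 4601, 5871 and 3936 FPKM, overlapping WT. This was the largest fall of a member in MUT, with a log2FC of -2.16 (SE 0.25, limma, adjusted p = 0.000116), against -1.42 (SE 0.25, limma, adjusted p = 0.00133) in GcKO. Oog3 was at 4924, 4564 and 4685 FPKM in WT, 1948, 2163 and 1988 in MUT, 1444, 2046 and 2509 in GcKO and 4696, 4416 and 3734 in AmcKO, with log2FCs of -1.22 in MUT and -1.28 in GcKO. The estimates for Oog3 and Oog4 were close in GcKO and apart in MUT. The ratio of Oog4 to Oog3 inside a library is the same whatever factor the library is multiplied by, and it was between 1.18 and 1.24 in WT, between 0.623 and 0.655 in MUT, between 0.933 and 1.27 in GcKO and between 0.980 and 1.33 in AmcKO. The ratio of Oog2 to Oog3 overlapped between groups, lying between 0.533 and 0.597 in WT and between 0.504 and 0.547 in MUT. As deposited, Oog2 was called lower in both groups (-1.32 in MUT and -1.30 in GcKO), but it stood at -0.33 and -0.26 with the same FPKM sum, called in MUT alone, and was called in neither group with quantile normalization (-0.26 and -0.21) or loess (-0.20 and -0.13). The difference of Oog4 between GcKO and MUT was 0.74 (SE 0.25, limma, adjusted p = 0.442), which was called with the same FPKM sum, with quantile normalization, with the loess correction, and, as deposited, without GcKO 1 (1.08, limma, adjusted p = 0.0381). With quantile normalization or the loess correction Oog3 turned to values between 0.02 and 0.05 in MUT and GcKO, whereas Oog4 stood at -0.98 and -0.89 in MUT, still called, and at -0.21 and -0.10 in GcKO (limma, adjusted p = 0.281 and 0.583). Oog1 varied from 0.239 to 183 FPKM with no order of groups.

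Oosp1 was at 3965, 4252 and 4644 FPKM in WT, at 2381, 2109.9 and 2481 FPKM in MUT and at 1825, 2138 and 2602 FPKM in GcKO, with log2FCs of -0.88 and -0.98. In AmcKO it was at 2559, 3688 and 2396 FPKM, also below each WT value (log2FC -0.60, limma, adjusted p = 0.162). Oosp2 was at 3657, 3414 and 4071 FPKM in WT, 1743, 1506 and 1619.95 in MUT, 1608, 1821 and 2206 in GcKO and 2641, 3518 and 2333 in AmcKO. The 3 Oosp genes were called lower in MUT and GcKO as deposited (medians -1.05 and -0.99), but with the same FPKM sum their medians were -0.05 and 0.05, and after quantile normalization 0.05 and 0.29, with Oosp1 called higher in MUT by quantile normalization (0.40) and loess (0.37).

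Nlrp14 was at 5634, 4767 and 4356 FPKM in WT, at 1851.5, 2550.2 and 1416 in MUT, at 1166, 2486 and 3825 in GcKO, and at 2899, 2953 and 2509 in AmcKO. The log2FCs were -1.38 (limma, adjusted p = 0.00966) and -1.13 (limma, adjusted p = 0.0263) in MUT and GcKO as deposited. It was called in neither group with the same FPKM sum, quantile normalization and loess, at -0.38, -0.09 and -0.13 in MUT (limma, adjusted p = 0.214, 0.847 and 0.757) and at -0.09, 0.12 and 0.16 in GcKO. Without MUT 3 the MUT call was lost, and without WT 4, WT 5 or GcKO 1 the GcKO call was lost (limma, adjusted p up to 0.0857). Of the Nlrp9 genes, Nlrp9a and Nlrp9c were called lower in both groups and Nlrp9b in neither as deposited, and the call of Nlrp9a in GcKO was lost without WT 4 or GcKO 1. Nlrp9a stood at -0.04 in MUT and turned to 0.13 in GcKO with the same FPKM sum, and neither that scaling nor quantile normalization nor loess called it in either group. Nlrp9c lost its GcKO call with the same FPKM sum (-0.16, limma, adjusted p = 0.411). Nlrp9c was at 272, 243 and 229 FPKM in WT, 102, 91.0 and 80.7 in MUT, 75.7, 107 and 155 in GcKO and 192, 216 and 169 in AmcKO. Its log2FC was -1.43 (SE 0.22, limma, adjusted p = 0.000527) in MUT and -1.19 (SE 0.22, limma, adjusted p = 0.00181) in GcKO, against -0.58 and -0.34 for Nlrp9b, which turned to 0.41 and 0.69 with the same FPKM sum and was then called higher in GcKO. Nlrp9b was at 491, 427 and 393 FPKM in WT, 322, 326 and 233 in MUT, 245, 358 and 458 in GcKO and 397, 317 and 321 in AmcKO. Within libraries, Nlrp9c stood to Nlrp9b at a ratio between 0.554 and 0.582 in WT and between 0.280 and 0.346 and between 0.299 and 0.338 in MUT and GcKO, without overlap with WT, and between 0.483 and 0.682 in AmcKO.

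None of the 6 Nlrp4 genes was called in MUT or GcKO as deposited (medians -0.39 and -0.24), and with the same FPKM sum the medians turned to 0.59 and 0.79 with 3 and 4 genes called higher, where 41.3% and 42.4% of all genes were. Nlrp4f, which lies apart from the others on chromosome 13, was at 473, 366 and 336 FPKM in WT, 430.2, 467 and 339 in MUT, 361, 456 and 577 in GcKO and 421, 317 and 358 in AmcKO. The 4 groups overlapped. Its log2FC was 0.08 in MUT and 0.24 in GcKO (limma, adjusted p = 0.827 and 0.435) as deposited. Nlrp4f was called higher than WT in each of these groups under 3 of the 5 scalings. It stood at 1.07 in MUT and 1.27 in GcKO with the same FPKM sum. With quantile normalization it stood at 0.91 and 1.08, where 6.87% and 6.26% of all genes were called higher. Nlrp4b was at 922, 699 and 595 FPKM in WT, 508, 525 and 368 in MUT, 336, 527 and 670.1 in GcKO and 731, 581 and 604 in AmcKO, with log2FCs of -0.65 and -0.56 (limma, adjusted p = 0.0705 and 0.116). Together the Nlrp4 genes took 0.126 to 0.193% of the summed FPKM in WT, 0.203 to 0.281% in MUT and 0.230 to 0.311% in GcKO, where the Obox genes took 8.94 to 9.27% in WT, 5.604 to 6.17% in MUT and 4.86 to 5.55% in GcKO.

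**Figure D4:**
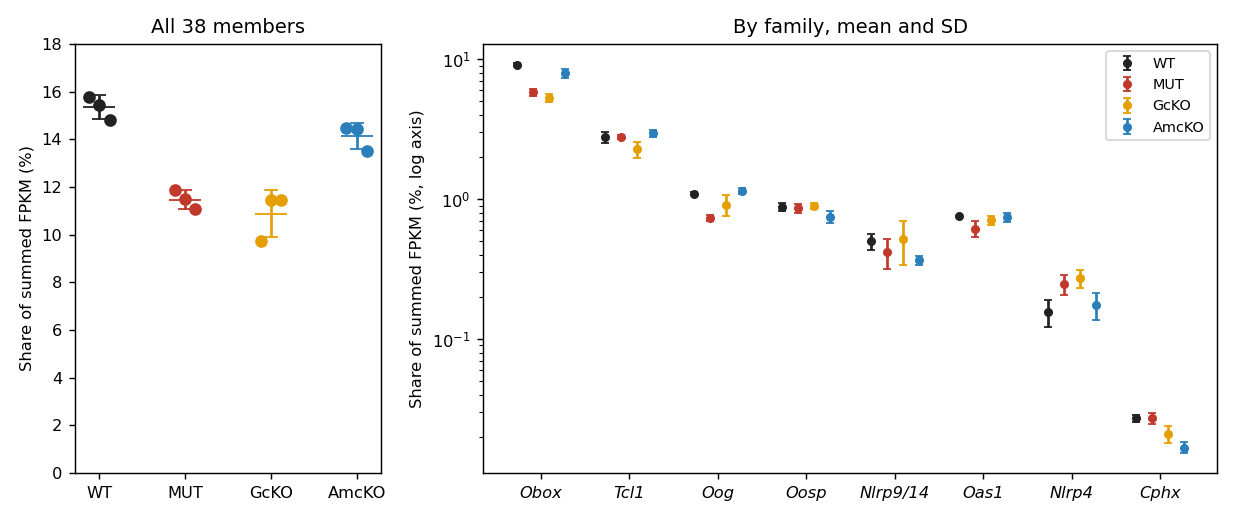
Share of the summed FPKM of a library taken by the 38 members (left, 1 point per library with mean and SD) and by each family (right, mean and SD of 3 libraries, log axis). Every MUT and GcKO library lies below every WT library in the share of all members and of the Obox, Oog and Oas1 families, and above in that of Nlrp4.

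Within the Oas1 cluster, neighbouring genes took different values. Oas1h was at 5061, 4738 and 5004 FPKM in WT, 1577, 1745 and 1615 in MUT and 1449, 1909 and 2368 in GcKO, and at 4153, 4745 and 3799 FPKM in AmcKO. Its log2FC was -1.58 (SE 0.17, limma, adjusted p = 0.000106) in MUT and -1.40 (SE 0.17, limma, adjusted p = 0.000162) in GcKO. Oas1e was at 2639.6, 2559.6 and 2697 FPKM in WT, 710.4, 1018 and 607 in MUT, 669.7, 1080.4 and 1493 in GcKO and 1561, 1719 and 1349.7 in AmcKO. Its log2FC was -1.79 in MUT and -1.36 in GcKO, and the AmcKO values lay below WT as well (-0.78, limma, adjusted p = 0.178). Oas1c, the gene next to Oas1e, was at 439.8, 495 and 465 FPKM in WT, 508, 659 and 496 in MUT, 452, 568 and 446.7 in GcKO and 644, 376 and 632 in AmcKO. The MUT values of Oas1c were just above WT, with a log2FC of 0.24 (limma, adjusted p = 0.433), and in GcKO it was 0.06 (limma, adjusted p = 0.883). With the same FPKM sum, with quantile normalization and with the loess correction, Oas1c was called higher in both groups (0.94 to 1.23). Oas1h and Oas1e stayed called lower in MUT under these scalings, at -0.59, -0.35 and -0.33 for Oas1h and at -0.79, -0.81 and -0.70 for Oas1e. In GcKO Oas1h stood at -0.36, still called, and at -0.12 and -0.10 (limma, adjusted p = 0.312 and 0.409), and Oas1e was called under none of them (-0.32, -0.32 and -0.22). Inside a library, Oas1h exceeded Oas1c 9.58- to 11.5-fold in WT, 2.65- to 3.25-fold in MUT, 3.21- to 5.30-fold in GcKO and 6.01- to 12.6-fold in AmcKO.

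The promoters of this pair, Oas1h on the plus strand (chr5:120861172-120861471) and Oas1c on the minus strand (chr5:120812465-120812764), are shown as members of a cluster with unlike changes.
Oas1h: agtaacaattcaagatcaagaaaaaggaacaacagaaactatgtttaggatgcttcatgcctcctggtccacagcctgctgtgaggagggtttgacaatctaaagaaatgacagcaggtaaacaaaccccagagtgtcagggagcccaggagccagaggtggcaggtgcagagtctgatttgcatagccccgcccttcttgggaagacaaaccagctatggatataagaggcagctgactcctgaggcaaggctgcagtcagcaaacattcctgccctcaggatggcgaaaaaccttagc
Oas1c: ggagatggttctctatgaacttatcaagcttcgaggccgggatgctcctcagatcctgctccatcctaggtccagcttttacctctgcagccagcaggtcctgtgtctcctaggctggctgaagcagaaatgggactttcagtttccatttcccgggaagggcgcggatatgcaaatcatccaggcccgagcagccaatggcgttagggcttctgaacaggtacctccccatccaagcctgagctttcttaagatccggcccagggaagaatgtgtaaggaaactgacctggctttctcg
They were identical at 49.6% of aligned positions, with no shared run over 8 bases, and neither held the NOBOX, LHX8 or TATA element. Oas1d, which lies at the other end of the cluster, had log2FCs of -0.56 in MUT and -0.63 in GcKO without a call (limma, adjusted p = 0.11 and 0.0734). Oas1f was at 38.6, 65.5 and 41.1 FPKM in WT, 22.6, 34.3 and 24.7 in MUT, 36.5, 68.5 and 67.0 in GcKO and 87.6, 51.7 and 67.8 in AmcKO, with the MUT values below the others. It was called lower in MUT than in AmcKO (log2 difference -1.30, limma, adjusted p = 0.0148), a call lost without MUT 1, MUT 3 or AmcKO 4. Oas1a, an interferon-induced copy, was at or below 1.48 FPKM and Oas1g at or below 1.01 FPKM in every library, and each passed 1 FPKM in 1 library only. Oas1b was at 3.41 to 11.6 FPKM.

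**Figure D5:**
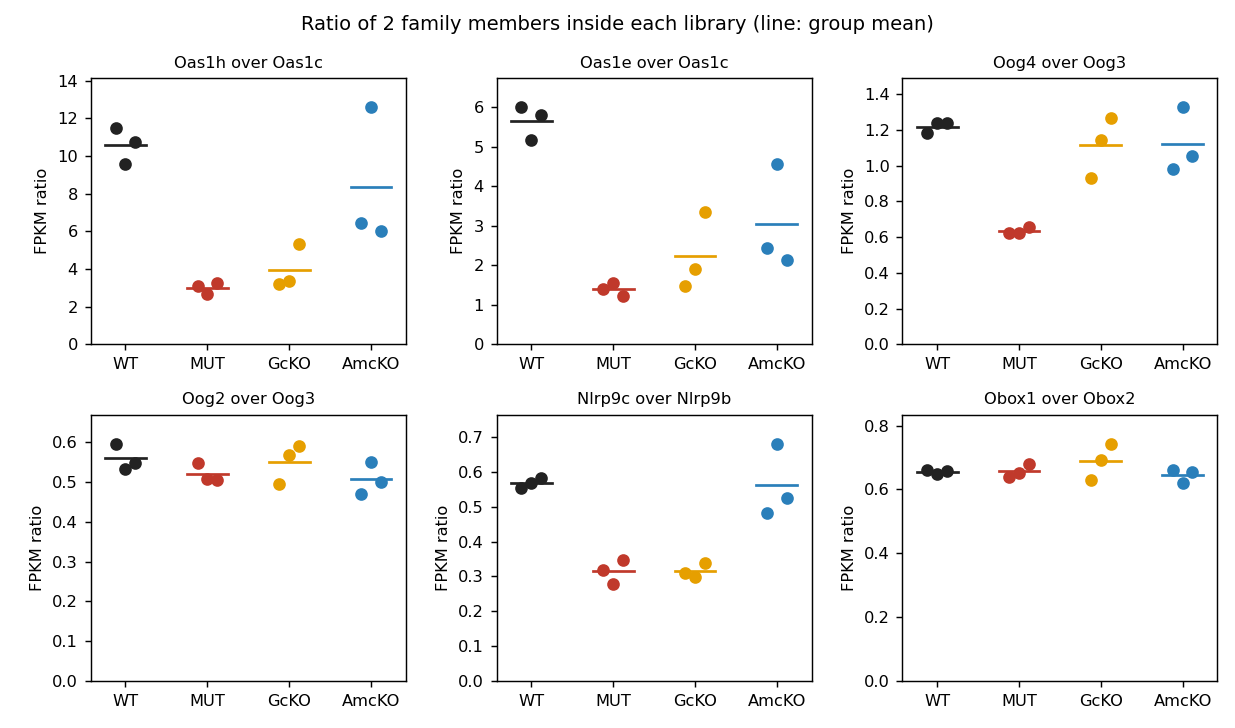
Ratio of the FPKM of 2 genes of a family inside each library, a quantity that multiplying a library by a factor leaves as it is, with 1 point per library and the group mean as a line. MUT and GcKO lie below WT for Oas1h over Oas1c and Nlrp9c over Nlrp9b. For both of these ratios AmcKO 5 lies above WT and the other AmcKO libraries lie below it. MUT, GcKO and AmcKO all lie below WT for Oas1e over Oas1c, and MUT alone lies below the other groups for Oog4 over Oog3. The groups overlap for Oog2 over Oog3 and Obox1 over Obox2. The pairs were picked after seeing the values, and no test was made.

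Under each of the 5 scalings (as deposited, same FPKM sum, median of ratios, quantile and loess), Oog4, Oas1h, Oas1e and Nlrp9c were called lower in MUT than in WT, and for 22 of 37 members the sign differed between scalings. In GcKO the sign differed for 17 of 37, and Tcl1b5 was the member called lower under each. The same counts were not made over all genes, so whether the members stand apart in this was not tested. Of 10 oocyte transcription factor genes, 7 were tested, and Tbpl2, a TATA-binding protein relative of the oocyte, was the one called lower in MUT (log2FC -1.22, limma, adjusted p = 0.0192) and 0 were called in GcKO. Nobox was at 51.4 ± 1.25 FPKM (SD, n = 3) in WT, 63.3 ± 10.999 in MUT and 70.5 ± 8.56 in GcKO, with no call. Of 14 NLR genes outside the families 4 were tested and 0 called, Nlrp5 having a log2FC of -0.70 in MUT (limma, adjusted p = 0.0722). Of 19 interferon response genes 6 were tested, of which Ddx58 was lower in MUT and Ddx58 and Ifit1 in GcKO, and Mtcp1, the relative of Tcl1, was not called. Of 4 Oas genes outside the cluster 1 was tested and 0 called. Of 11 Pramel genes, relatives of the oogenesins, 3 were tested and 0 called.

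AmcKO oocytes, whose granulosa cells lack Dpagt1, were compared with WT and with the other groups. Against WT, 1 of 37 members (Cphx2) was called, where 0.116% of all genes were lower and 0.214% called in either direction, and 13 members had an unadjusted p under 0.05 (15.6% of all genes). The AmcKO values nevertheless lay below WT for 15 members (8.61% of all genes) and above for 0 (9.22% of all genes), and the median log2FC was -0.34, beside 0.03 for all genes and -0.29 for genes with a mean over 100 FPKM. The Tcl1b genes other than Tcl1b2, the Obox genes Obox1, Obox2 and Obox5, and Oosp1 and Oosp3 were among these 15, at -0.44 to -0.69 each. Nlrp14 (-0.81), Oas1e (-0.78) and Cphx2 were also among them, with larger falls. With the same FPKM sum the median over the members was -0.05, and the sign differed between scalings for 13 of 37, a count not made over all genes.

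Compared with AmcKO, 13 members were lower in MUT (5.07% of all genes) and 1, Cphx2, was higher (1.42%), where 6.49% of all genes were called. In GcKO 14 were lower than in AmcKO (4.79% of all genes) and 0 higher (0.668%), where 5.46% of all genes were called. Without overlap, 22 members were below AmcKO in MUT (14.4% of all genes) and 2 above (14%), and 17 were below in GcKO (11.6%) and 1 above (12%). Lower in MUT than AmcKO were the abundant Obox genes, Oog2, Oog3, Oog4, Tcl1, Tcl1b2, Oosp2, Nlrp9c, Oas1e, Oas1f and Oas1h. Among those called lower, Oog4 had the largest difference (-1.88, SE 0.25, limma, adjusted p = 0.000797), and Oas1h followed at -1.36 (limma, adjusted p = 0.000566). Lower in GcKO than AmcKO were the same Obox and Oog genes, the 6 Tcl1 genes, Nlrp9c and Oas1h, from -0.82 for Nlrp9c to -1.44 for Obox2. With the same FPKM sum, 7 members were lower (1.47% of all genes) and 7 higher (21.4%) in MUT than AmcKO, and 7 lower (1.14%) and 6 higher (22.2%) in GcKO. With quantile normalization and with loess, 0 members were lower in GcKO than AmcKO (1.42% and 1.3% of all genes) and 2, Nlrp4f and Oosp1, were higher (0.792% and 0.712%). Oog4 and Oas1h remained lower in MUT than AmcKO under each of the 5 scalings. The count in MUT fell to 7 without MUT 3, and that in GcKO to 8 without AmcKO 4 or AmcKO 5 and to 1 when only these 2 groups were fitted. The share of all genes was not taken in these fits.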

How the data were processed

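Oocyte RNA was amplified by Smart-seq2. The labels name 2 different library kits. Paired reads of 150 nt were aligned by the authors to mm10 with TopHat2 2.0.13, and the authors deposited 1 FPKM value per gene and library from Cufflinks 2.2.1, with columns on their own comparisons (ratios on a log2 scale and their p- and q-values), which were not used. The gene annotation was not given in the sources used here.

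The FPKM columns of 12 libraries were matched to the labels. limma 3.58.1 (R 4.3.3) was fitted to log2(FPKM + 1) with an abundance trend, for 11233 genes with at least 1 FPKM in at least 1 library, in 1 model with 8 residual degrees of freedom and 6 contrasts. The fold change on this scale understates the change of low transcripts. Benjamini-Hochberg adjusted p-values were taken over all genes tested, with a threshold of 0.05. Shares of the FPKM sum were compared by exact permutation tests. Positions and transcripts were from GENCODE M21 and promoters from RefSeq (GRCm38.p6), aligned with biopython 1.88. Tables were made with Python 3.11.15, numpy 2.4.6, pandas 2.3.3 and scipy 1.17.1. The code was tested on simulated data.

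The members, the lists and the pairs of genes were chosen with earlier results of these data known. Named genes were the 2 most abundant members of each family, the members with the lowest and highest fold change in MUT and GcKO, and members called between MUT, GcKO and AmcKO (up to 6 each). Promoters were chosen for the unequal or shared change of their genes. Obox5, Tcl1b4, Tcl1b5, Oas1d, Oas1f, Oog2, Nlrp9a and Nlrp9c were named after their values were seen. Alternatives were another pseudocount or filter, other scalings, the 2 groups alone, no trend, an adjusted p under 0.01, a minimum fold change of 2, the label number as a block and each library left out. A fit with Cphx1 and Cphx2 summed was added after seeing the data.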

Additional observations from a re-analysis of the deposited data

How the results depend on the processing

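The calls as deposited rested on which scaling of the libraries was used. Median of ratios called the same members lower than WT in MUT and GcKO as on the deposited scale. It turned the sign of 0 of 37 members in either comparison. Between MUT and WT, 12 members were called with the same FPKM sum (8 lower and 4 higher), 12 with quantile normalization (6 and 6) and 11 with loess (5 lower, 7.42% of all genes, and 6 higher, 6.4%). Between GcKO and WT 7 were called with quantile normalization (4 lower and 3 higher) and 4 with loess (2 lower, 6.98% of all genes, and 2 higher, 5.8%), against 20 lower and 0 higher in each comparison as deposited; the cause was not tested. Between GcKO and MUT 4, 5 and 2 were called with the same sum, quantile normalization and loess. Of all genes 0.32, 0.258 and 0.196% were lower there and 0.347, 0.24 and 0.223% higher. Between MUT and AmcKO 9 (5 lower and 4 higher) were called with quantile normalization and 9 (4 and 5) with loess. There 2.83 and 2.78% of all genes were lower and 1.91 and 1.81% higher. Between GcKO and AmcKO these 2 scalings called 2 and 2, all higher (0.792 and 0.712% of all genes), where 14 lower were called as deposited. Between AmcKO and WT 0 were called without the filter, without the trend or at an adjusted p under 0.01. The stricter p gave 7 between MUT and AmcKO and 6 between GcKO and AmcKO, where a fold change over 2 gave 9, no trend 6 and the 2 groups alone 1. With 1 library left out, the counts ranged from 18 to 21 (MUT against WT), 18 to 22 (GcKO against WT), 0 to 2 (AmcKO against WT), 0 to 1 (GcKO against MUT), 7 to 14 (MUT against AmcKO) and 8 to 18 (GcKO against AmcKO). The share of all genes called was not taken for these fits, nor for the filter, p, fold, trend and 2-group settings before them. The difference in the share of FPKM was -2.57 points in MUT and -2.83 in GcKO without Obox2. With the 100 most abundant genes taken out of the denominator alone it was -16.1, -17.1 and -4.58 in MUT, GcKO and AmcKO. The 15 members among these genes stayed in the numerator, so this value is no share of a whole. The difference in the share itself ranged from -4.15 to -3.67, -4.77 to -3.91 and -1.49 to -0.90 with 1 library left out.

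With the label number as a replicate block, 0 members were called between GcKO and MUT and 0 between AmcKO and WT (Cphx2 -7.06, limma, adjusted p = 0.0729). Correlations of the deviations from the group means were -0.041 to 0.041 for same-numbered libraries and -0.057 to 0.071 for the others. They cannot show whether the numbers pair the libraries. No paired analysis was possible because the groups share no numbers in the other 4 comparisons.

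The sign of the log2 value turned in MUT against WT for 15 of 37 members with the same FPKM sum, 15 with quantile normalization and 16 with loess, and in GcKO against WT for 11, 13 and 13. With median of ratios it turned for 0 members in both comparisons. These counts were not made over all genes. The values that follow are those of the genes chosen by the naming rule, in comparisons with AmcKO only where they were called as deposited. With the same FPKM sum, the log2 value turned in MUT vs WT for Cphx2 0.16, Nlrp4b 0.34, Nlrp9b 0.41, Oosp1 0.11, Tcl1b1 0.0089, Oas1a 0.14 and Tcl1b2 0.21, in GcKO vs WT for Nlrp4b 0.47, Nlrp9b 0.69, Oosp1 0.057 and Oosp2 0.047, in MUT vs AmcKO for Tcl1b2 0.071. With quantile normalization, the log2 value turned in MUT vs WT for Nlrp4b 0.23, Nlrp9b 0.23, Oog3 0.024, Oosp1 0.40, Oosp2 0.041, Tcl1 0.37, Tcl1b1 0.31 and Tcl1b2 0.51, in GcKO vs WT for Nlrp4b 0.36, Nlrp14 0.12, Nlrp9b 0.57, Oog3 0.022, Oosp1 0.34, Oosp2 0.29 and Tcl1 0.19, in MUT vs AmcKO for Oosp2 0.085, Tcl1 0.20 and Tcl1b2 0.29, in GcKO vs AmcKO for Tcl1 0.024. With loess, the log2 value turned in MUT vs WT for Nlrp4b 0.24, Nlrp9b 0.19, Obox2 0.11, Obox1 0.025, Oog3 0.053, Oosp1 0.37, Oosp2 0.024, Tcl1 0.49, Tcl1b1 0.37 and Tcl1b2 0.46, in GcKO vs WT for Nlrp4b 0.38, Nlrp14 0.16, Nlrp9b 0.48, Oog3 0.039, Oosp1 0.32, Oosp2 0.27, Tcl1 0.29 and Tcl1b1 0.067, in MUT vs AmcKO for Obox2 0.034, Oosp2 0.052, Tcl1 0.063 and Tcl1b2 0.23, in GcKO vs AmcKO for Tcl1b1 0.12. Outside the naming rule, members called lower than WT as deposited that turned were Tcl1b4 (0.19) and Tcl1b5 (0.22) in MUT and Nlrp9a (0.13) in GcKO with the same sum, Tcl1b4 (0.20) and Oosp3 (0.051) in MUT and Oosp3 (0.025) in GcKO with quantile normalization, and Tcl1b4 (0.24) and Oosp3 (0.082) in MUT and Oosp3 (0.11) in GcKO with loess. With 1 library left out, Nlrp4f ranged from -0.026 to 0.22 and Oas1a from -0.32 to 0.31 between MUT and WT. Leaving out 1 library turned uncalled values in MUT vs WT without WT 6 for Nlrp4f -0.026 and Oas1a 0.31, in MUT vs WT without MUT 2 for Nlrp4f -0.02 and Oas1a 0.14, in MUT vs WT without MUT 3 for Oas1a 0.14, in GcKO vs WT without GcKO 2 for Oas1c -0.053.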
